A study of Mus musculus with 4 samples.

Results

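The effect of cyclophosphamide (CPA) on gene expression in cultured mouse tooth germs was compared between 37 °C and 25 °C. For each gene, the ratio of 37°C_CPA over 37°C_DMSO was divided by the ratio of 25°C_CPA over 25°C_DMSO, and this ratio of ratios is above 1 where CPA cultures stood higher against their solvent control at 37 °C than at 25 °C. The ratio was formed for the 12328 of 15887 genes that had at least 50 counts in 1 library or more at each temperature. A further 979 genes reached 50 counts at 37 °C only, 376 at 25 °C only, and 2204 at neither temperature. The 4 groups were 37°C_CPA, 37°C_DMSO, 25°C_CPA and 25°C_DMSO, with 1 library each from pooled tooth germs of ICR mouse embryos, and DMSO is the solvent of the drug. The methods describe E14.5 (embryonic day) molar germs kept for 3 days with 2.5 mM CPA or with DMSO at one of the temperatures. The sample records give 0.25 mM CPA and 4 further days of culture without the drug. They label the germs E14.5 but give E13.5 in the culture protocol. Dose, age and the time of harvest thus differ within or between these sources. Expression was measured by cap analysis of gene expression (CAGE), which counts RNAs by their capped 5′ ends.

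CPA is a prodrug whose active products crosslink DNA. In most cells crosslinks stall replication forks, bring in the Fanconi anemia and homologous recombination proteins, and activate the transcription factor p53, which switches on genes for cell cycle arrest, repair and cell death. Tooth germs at this age consist of a dental epithelium that will make enamel and a dental mesenchyme that will make dentin and pulp, and lowered temperature slows both metabolism and cell division. The comparison asks whether the transcriptional response to the drug at body temperature was also present in germs held at a lower temperature.

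The libraries held 15255885 counts in 37°C_CPA, 16449264 in 37°C_DMSO, 15297204 in 25°C_CPA and 15101186 in 25°C_DMSO, and counts were scaled by TMM (trimmed mean of M-values) factors of 0.967 to 1.03. Since each condition was sequenced as 1 library, the differences could not be checked against replicates and were not tested. The 95% intervals below are exact, cover counting error only, and treat each tag as an independent molecule. A gene was called at a fold of 2 or more in either direction. The tissue label was checked against tooth genes, and Msx1, a transcription factor of the dental mesenchyme, was present in every library, with 2062 counts with CPA and 2354 with DMSO at 37 °C, and 3346 with CPA and 3007 with DMSO at 25 °C. Values of single genes below are raw counts unless a scale is named.

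The CPA effect was wide at 37 °C and narrow at 25 °C. Of the 12328 genes, 238 (1.93%) were called higher and 99 (0.803%) lower in 37°C_CPA than in 37°C_DMSO, against 13 (0.105%) higher and 9 (0.0730%) lower in 25°C_CPA than in 25°C_DMSO. The standard deviation of the log2 fold over genes was 0.41 at 37 °C and 0.21 at 25 °C, and the central 95% of genes lay between -0.75 and 0.87 at 37 °C and between -0.43 and 0.38 at 25 °C. The log2 folds at the 2 temperatures showed no correlation over genes, with Pearson's r of 0.01 and Spearman's rank correlation of 0.02, given as a description since genes are not independent replicates. At 25 °C counting error made up much of the spread in genes of lower count, which weakens both values. The 2 folds share no library.

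The ratio of ratios was called higher for 288 genes (2.34%) and lower for 146 genes (1.18%), and the median log2 ratio was -0.01 with quartiles of -0.24 and 0.22. At least 3-fold ratios were found for 74 genes on the higher and 31 on the lower side, and at least 4-fold ratios for 28 and 14 genes. The split between directions moves with the scaling: higher calls made up 66.4% of all calls with TMM factors, 67.4% with DESeq2 size factors and 63.2% with total counts, but 42.5% without scaling and 29.3% when libraries were scaled to Gapdh. Scaling to Gapdh moved every log2 ratio by -0.23, and leaving out scaling moved them by -0.15. Gapdh itself had 193 counts with CPA and 215 with DMSO at 37 °C, and 117 with CPA and 138 with DMSO at 25 °C. The ratio of ratios of Gapdh was 1.18, with an interval of 0.849 to 1.63. The shift made by scaling to Gapdh thus lay within the counting error of this gene. Counts and medians given below with scaling to Gapdh carry that error.

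**Figure D1:**
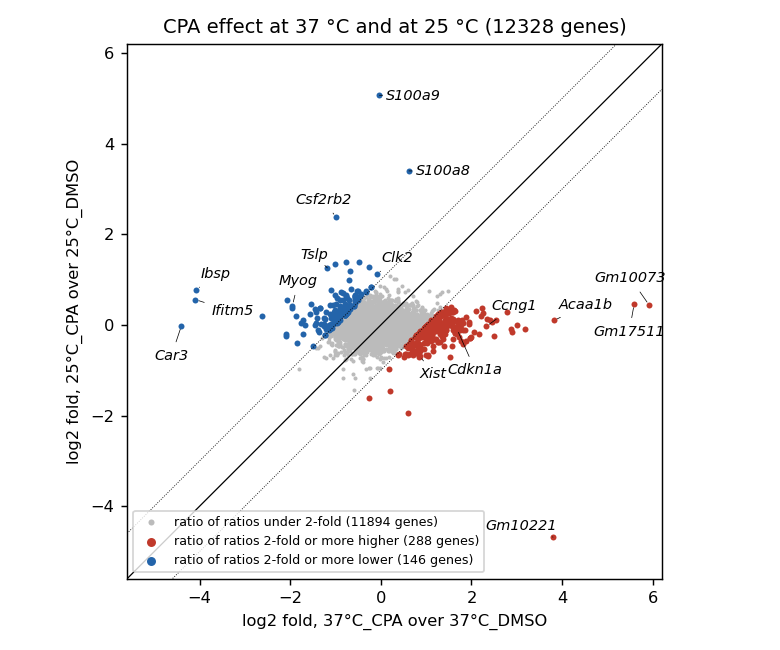
Log2 fold of 37°C_CPA over 37°C_DMSO (horizontal) against log2 fold of 25°C_CPA over 25°C_DMSO (vertical) for 12328 genes, 1 point per gene, with equal folds on the solid line and a 2-fold ratio of ratios on the dotted lines. Red points (288 genes) spread to the right at a vertical position near 0, and blue points (146 genes) lie to the left and above, with S100a8 and S100a9 far above the others.

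The genes with a higher ratio were mostly higher with CPA at 37 °C and near their control level with CPA at 25 °C. Of the 288, 210 were at least 2-fold higher in 37°C_CPA than in 37°C_DMSO, and 209 of these were within 2-fold of 25°C_DMSO in 25°C_CPA. In another 3 genes the 25 °C fold alone was past 2, on the lower side, and in 75 neither fold was. The median log2 fold was 1.20 at 37 °C (quartiles 0.99 and 1.51) and -0.10 at 25 °C (quartiles -0.27 and 0.02). The 37°C_CPA library was the highest of the 4 for 237 of the 288 genes, and at least 2-fold above each other library for 103. In 28 genes it was instead the 37°C_DMSO library that stood apart, at least 2-fold below each of the others. Read from the other side, 210 of the 238 genes higher with CPA at 37 °C were called in the ratio, their log2 fold at 25 °C had a median of -0.02, and it lay within 0.25 of 0 for 178 and within 0.5 for 227. The remaining 28 genes had a median log2 fold of 0.22 at 25 °C. All 28 were above 0, which follows from the selection, since a gene past 2-fold at 37 °C is otherwise called.

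The genes with a lower ratio were a more mixed set. Of the 146, 61 were at least 2-fold lower in 37°C_CPA than in 37°C_DMSO, 9 were at least 2-fold higher in 25°C_CPA than in 25°C_DMSO without passing 2-fold at 37 °C, and 76 passed at neither temperature. The median log2 fold was -0.94 at 37 °C (quartiles -1.17 and -0.75) and 0.31 at 25 °C (quartiles 0.14 and 0.56), so that both pairs of libraries contributed. The highest library was 37°C_DMSO for 96 genes and 25°C_CPA for 43, and the lowest was 37°C_CPA for 79 and 25°C_DMSO for 62. The 37°C_DMSO library was at least 2-fold above each of the others in 28 genes, and 37°C_CPA at least 2-fold below each of the others in 20. The 2 solvent controls also differed here: 25°C_DMSO was at least 2-fold below 37°C_DMSO in 65 of the 146 genes and above it in 6, against 7 below and 57 above among the 288 genes with a higher ratio. Both controls enter the ratio, so picking genes by it favours these directions. The share over all genes was not taken.

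Ranked by the interval bound nearest to 1, the first gene with a higher ratio was Acaa1b, a peroxisomal thiolase of fatty acid breakdown, on chromosome 9 (119057141 to 119066211 in mm9). It had 1030 counts in 37°C_CPA, 79 in 37°C_DMSO, 132 in 25°C_CPA and 120 in 25°C_DMSO. This is a fold of 14.1 at 37 °C, a fold of 1.07 at 25 °C and a ratio of ratios of 13.2 (95% interval 9.27 to 18.7). Among the other libraries 37°C_DMSO was the lowest, and the 25 °C pair did not differ beyond counting error.

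Dcxr, a carbonyl reductase of the xylulose pathway, had 780 counts with CPA and 105 with DMSO at 37 °C, and 229 with CPA and 225 with DMSO at 25 °C, a ratio of 8.11 (6.11 to 10.8). Ddias, an anti-apoptotic gene induced by DNA damage, had 912 counts with CPA and 134 with DMSO at 37 °C, and 213 with CPA and 219 with DMSO at 25 °C, a ratio of 7.78 (5.93 to 10.2). Eda2r, a receptor of the TNF receptor family that binds ectodysplasin A2, had 442 counts with CPA and 64 with DMSO at 37 °C, and 55 with CPA and 60 with DMSO at 25 °C, a ratio of 8.37 (5.20 to 13.4). These genes share 1 pattern, a single high library and 3 low ones, although for Dcxr and Ddias the 25 °C libraries stood above 37°C_DMSO. Ephx1, a microsomal epoxide hydrolase, had 1029 counts with CPA and 198 with DMSO at 37 °C, and 88 with CPA and 102 with DMSO at 25 °C, a ratio of 6.69 (4.78 to 9.37), and here both 25 °C libraries were below 37°C_DMSO.

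Mybl1, a transcription factor of the MYB family, had 443 counts with CPA and 82 with DMSO at 37 °C, and 100 with CPA and 90 with DMSO at 25 °C, a ratio of 5.40 (3.67 to 7.95). Cox6b2, a subunit of cytochrome c oxidase known from testis, had 1059 counts with CPA and 226 with DMSO at 37 °C, and 150 with CPA and 133 with DMSO at 25 °C, a ratio of 4.62 (3.47 to 6.13). Dglucy, a D-glutamate cyclase, had 353 counts with CPA and 85 with DMSO at 37 °C, and 70 with CPA and 78 with DMSO at 25 °C, a ratio of 5.14 (3.38 to 7.82). In Cpt1c, the brain form of carnitine palmitoyltransferase, there were 775 counts with CPA and 228 with DMSO at 37 °C, and 69 with CPA and 86 with DMSO at 25 °C, a ratio of 4.71 (3.27 to 6.78). In each of these genes the 2 libraries at 25 °C lay within counting error of each other, so that the ratio came from the 37 °C pair.

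Mgmt and Polk, both DNA repair genes, completed the set of 15 together with 4 p53 targets described below. Mgmt, which removes alkyl groups from guanine, had 506 counts in 37°C_CPA, 156 in 37°C_DMSO, 206 in 25°C_CPA and 268 in 25°C_DMSO, a ratio of 4.69 (3.60 to 6.10). The drug fold was 3.51 at 37 °C and 0.749 (0.622 to 0.902) at 25 °C, so the 25 °C fold was below 1 beyond counting error. Polk, a translesion polymerase, had 1034 counts with CPA and 338 with DMSO at 37 °C, and 190 with CPA and 224 with DMSO at 25 °C, a ratio of 4.01 (3.17 to 5.07).

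**Figure D2:**
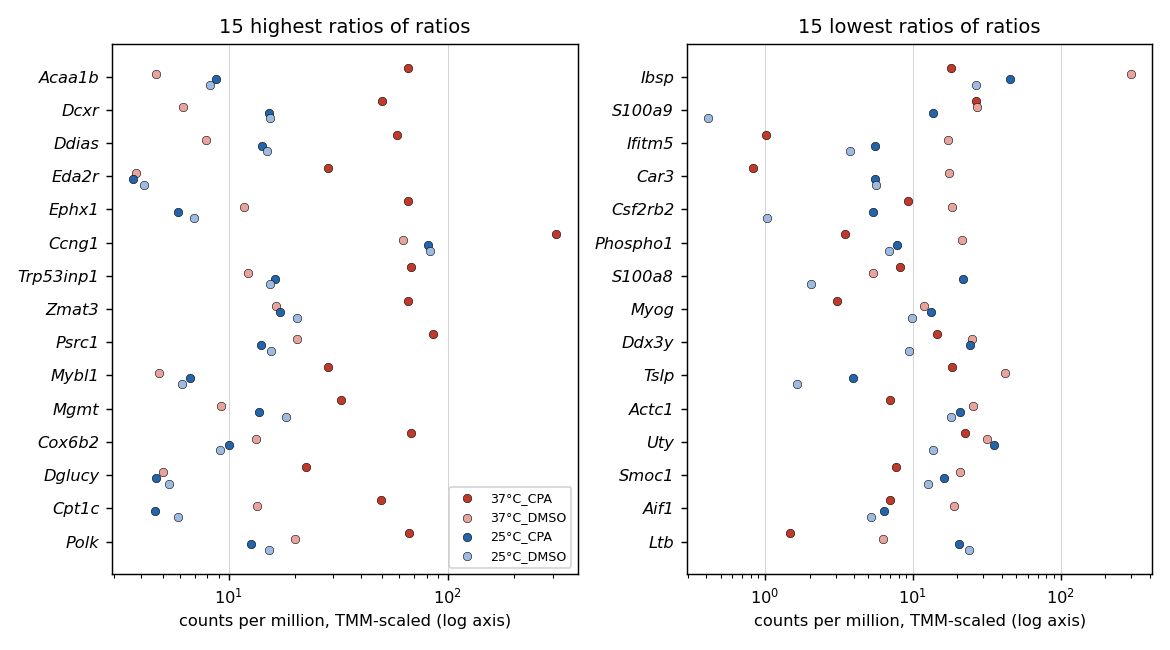
TMM-scaled CPM (log axis) of the 15 genes with the highest and the 15 with the lowest ratio of ratios, ranked by the interval bound nearest to 1, with 1 point per library. In the left panel 37°C_CPA is the rightmost point in every row, while in the right panel the outlying library differs from row to row: 37°C_DMSO for Ibsp, 25°C_DMSO for S100a9 and 37°C_CPA for Ltb.

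The p53 targets with known roles in feedback and cell cycle arrest were called often and in 1 direction. Of 29 measured, 11 were called higher and 0 lower, and the median log2 ratio was 0.50, beside 2.34% called higher and a median of -0.01 over all genes. All gene lists were chosen with earlier results of these data known, so their calls are not independent evidence. Several members, in the death, repair, replication and mitosis lists too, are in the paper's own list of genes raised by CPA at 37 °C. Ccng1, a cyclin that recruits phosphatase 2A to MDM2, had 4878 counts with CPA and 1052 with DMSO at 37 °C, and 1222 with CPA and 1213 with DMSO at 25 °C, a fold of 5.02 at 37 °C, a fold of 0.982 (0.906 to 1.06) at 25 °C and a ratio of 5.12 (4.60 to 5.68). Trp53inp1, a stress-induced partner of p53, had 1063 counts with CPA and 209 with DMSO at 37 °C, and 243 with CPA and 227 with DMSO at 25 °C, a ratio of 5.28 (4.15 to 6.72). Zmat3, an RNA-binding zinc finger protein, had 1030 counts with CPA and 279 with DMSO at 37 °C, and 256 with CPA and 300 with DMSO at 25 °C, a ratio of 4.81 (3.86 to 5.98). In all 3 genes the high library was 37°C_CPA, and the 25 °C interval for Ccng1 is narrow around 1.

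Cdkn1a encodes p21, the inhibitor of cyclin-dependent kinases that carries out much of the p53 arrest, and lies on chromosome 17 (29227924 to 29237667 in mm9). It had 3599 counts in 37°C_CPA, 1220 in 37°C_DMSO, 484 in 25°C_CPA and 503 in 25°C_DMSO. The folds were 3.19 (2.99 to 3.41) at 37 °C and 0.938 (0.826 to 1.06) at 25 °C, and the ratio was 3.41 (2.95 to 3.93). Both 25 °C libraries were below 37°C_DMSO, so the level in 25°C_CPA was also far under that of the solvent control at 37 °C.

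The sequence before the Cdkn1a start is shown because it holds matches to the half-site that p53 binds. The 120 bases end at the RefSeq start site (GRCm38.p6, chr17:29090859-29090978, plus strand), and capitals mark exact matches to the p53 half-site. Near matches, such as the bases right after the last capitals, are not marked, so the capitals need not show which half-sites pair.
Cdkn1a: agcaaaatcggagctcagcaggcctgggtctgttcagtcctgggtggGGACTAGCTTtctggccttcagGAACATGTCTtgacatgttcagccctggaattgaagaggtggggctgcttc
Windows of 300 bases around the start (250 before and 50 after) held a p53 half-site on either strand in 28.1% of 32 windows of the measured arrest genes and 28.6% of 14 windows of the death genes, against 8.36% of all 32851 RefSeq windows and 6.82% of the 11568 windows of the genes with a ratio. Of the 9 called arrest genes with a window, only Cdkn1a had a half-site in the last 120 bases before the start. A match is a description of the sequence and not a site shown to be bound in these germs.

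Among the other arrest genes, Psrc1, a microtubule regulator, had 1332 counts with CPA and 348 with DMSO at 37 °C, and 210 with CPA and 228 with DMSO at 25 °C, a ratio of 4.62 (3.68 to 5.80). Sesn2, a stress sensor that lowers TOR signalling, had 968 counts with CPA and 312 with DMSO at 37 °C, and 283 with CPA and 286 with DMSO at 25 °C, a ratio of 3.48 (2.81 to 4.31). Gtse1, E2f7, Phlda3, Ercc5 and Btg2 were also called, with log2 ratios of 1.70, 1.30, 1.24, 1.22 and 1.17. Ercc5 is a repair gene, but it is counted in this list and not in the excision repair list. The list did not move as a whole. Mdm2, the ligase that degrades p53, had 2697 counts with CPA and 1749 with DMSO at 37 °C, and 1637 with CPA and 1462 with DMSO at 25 °C, a log2 ratio of 0.61, and Trp53 itself had 2213 counts with CPA and 2353 with DMSO at 37 °C, and 1697 with CPA and 1529 with DMSO at 25 °C, a log2 ratio of -0.09. Cop1, another p53 ligase, had a log2 ratio of -0.59, Gadd45b one of -0.34 and Sesn1 one of -0.22.

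Of 14 measured p53 targets that promote cell death, 8 were called higher and 0 lower, beside 2.34% called higher over all genes. The median log2 ratio was 1.20. After Eda2r came Pidd1, the scaffold of the caspase-2 complex, with 318 counts with CPA and 72 with DMSO at 37 °C, and 105 with CPA and 85 with DMSO at 25 °C, a ratio of 3.97 (2.66 to 5.94). Bbc3, which encodes the BH3-only protein PUMA, had 410 counts with CPA and 185 with DMSO at 37 °C, and 125 with CPA and 158 with DMSO at 25 °C, a ratio of 3.11 (2.30 to 4.21). Bax, the pore-forming member of the BCL2 family, had 5486 counts with CPA and 2476 with DMSO at 37 °C, and 2705 with CPA and 2801 with DMSO at 25 °C, a ratio of 2.55 (2.37 to 2.74). Aen, Tnfrsf10b, Ei24 and Fas were called with log2 ratios of 1.63, 1.60, 1.30 and 1.10. Pmaip1 (NOXA) had 965 counts with CPA and 435 with DMSO at 37 °C, and 88 with CPA and 68 with DMSO at 25 °C, a log2 ratio of 0.93, just short of the call, because both of its folds were above 1 (log2 1.26 and 0.33). With a minimum of 200 counts 4 of the death genes were called.

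The list of BCL2 family and caspase genes held few calls, and Bax, Bbc3 and Pmaip1 are not in it. Of its 22 measured members, 1 was called in each direction, beside 2.34% called higher and 1.18% lower over all genes. At these shares a list of this size holds few calls or none. The median was 0.06 and turned negative without scaling (-0.09) and with scaling to Gapdh (-0.17). Bok, a BAX relative, had 346 counts with CPA and 210 with DMSO at 37 °C, and 579 with CPA and 657 with DMSO at 25 °C, a log2 ratio of 1.06, and Bmf, a BH3-only protein, had 145 counts with CPA and 328 with DMSO at 37 °C, and 254 with CPA and 224 with DMSO at 25 °C, a log2 ratio of -1.21. A further list of 17 genes was taken in large part from genes reported as raised by CPA at 37 °C in these same libraries. It had 14 called higher and a median of 2.21, which, as for the p53 lists above, is not independent evidence of its direction.

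**Figure D3:**
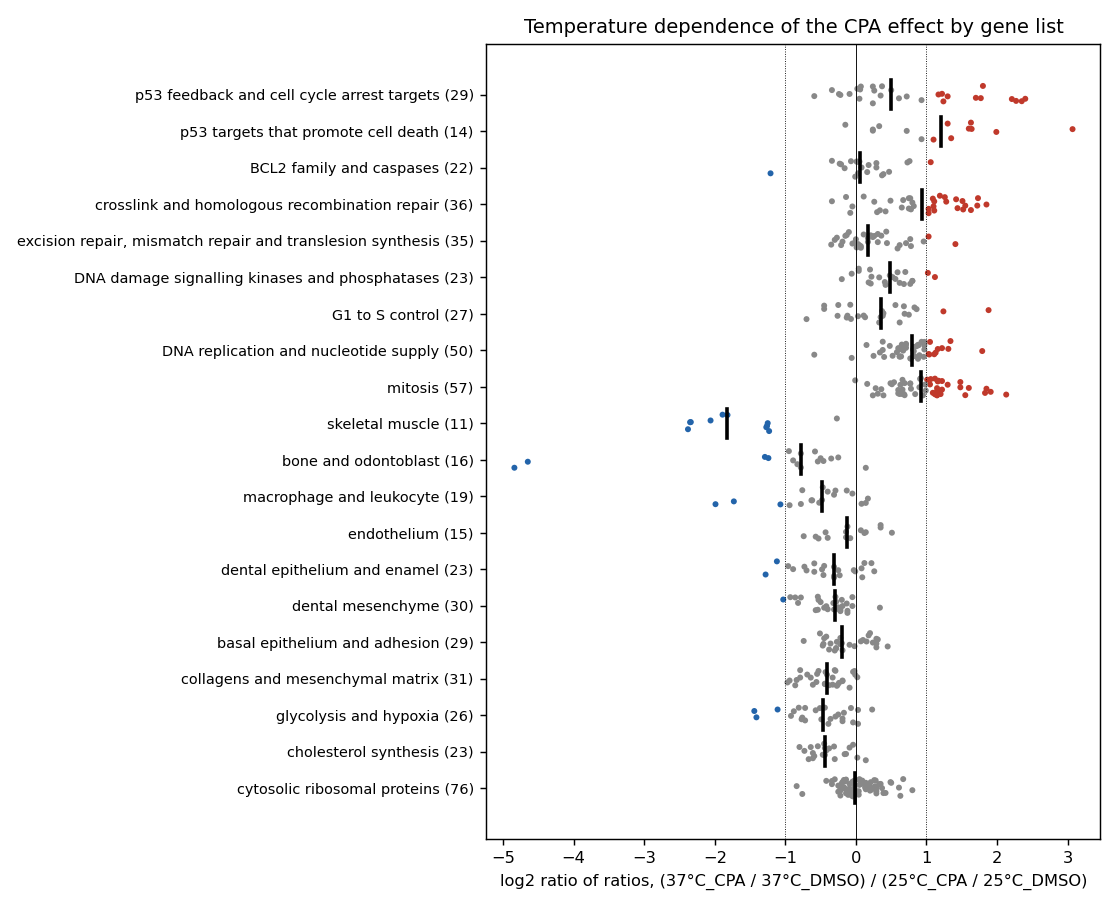
Log2 ratio of ratios of the measured members of 20 gene lists, 1 point per gene, with the number measured in brackets and the list median as a black bar. Red points are genes called higher and blue points genes called lower, and the 2 p53 lists, crosslink repair, replication and mitosis lie to the right of 0 while skeletal muscle, with 10 of 11 genes called lower, lies to the left.

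Repair of crosslinks and double-strand breaks by homologous recombination was the repair pathway with the most called members. Of 36 measured genes 18 were called higher and 0 lower, beside 2.34% called higher and 1.18% lower over all genes, with a median log2 ratio of 0.93 and median log2 folds of 0.95 at 37 °C and -0.08 at 25 °C. Exo1, the nuclease that resects broken ends, had 388 counts with CPA and 126 with DMSO at 37 °C, and 144 with CPA and 152 with DMSO at 25 °C, a ratio of 3.61 (2.63 to 4.95). Fanca, of the Fanconi anemia core complex, had 178 counts with CPA and 63 with DMSO at 37 °C, and 97 with CPA and 102 with DMSO at 25 °C, a ratio of 3.30 (2.17 to 5.03), and its target Fancd2 had 295 counts with CPA and 106 with DMSO at 37 °C, and 90 with CPA and 83 with DMSO at 25 °C, a ratio of 2.85 (1.93 to 4.21). In Fanca the 25 °C libraries lay above 37°C_DMSO and in Fancd2 they did not.

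Mcm8, a helicase of recombination, had 239 counts with CPA and 117 with DMSO at 37 °C, and 117 with CPA and 171 with DMSO at 25 °C, a ratio of 3.32 (2.37 to 4.64), with 25°C_CPA below 25°C_DMSO. Brca1, Bard1, Brip1 and Brca2 were called with log2 ratios of 1.28, 1.44, 1.19 and 1.09. Brca2 had 509 counts with CPA and 264 with DMSO at 37 °C, and 475 with CPA and 473 with DMSO at 25 °C, so 37°C_DMSO was the library that stood apart. Fancl (-0.34), Fan1 (-0.14), Fancc (-0.08) and Nbn (-0.05) had log2 ratios below 0. With scaling to Gapdh 11 of the list were called, and with a minimum of 200 counts 6.

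Each of the other lists of damage genes had 2 calls, beside 2.34% called higher over all genes. The called repair genes Polk, Mgmt and Ercc5, given above, are not in these lists and not in these counts. Of 35 genes of excision repair, mismatch repair and translesion synthesis, the called ones were Rev1 with 1076 counts with CPA and 439 with DMSO at 37 °C, and 654 with CPA and 638 with DMSO at 25 °C, a log2 ratio of 1.41, and Pms1 with a log2 ratio of 1.03, and the list median was 0.17 (-0.07 with scaling to Gapdh). Xpc, which detects helix distortion, had a log2 ratio of -0.03. Of 23 damage signalling kinases, phosphatases and their partners, Clspn (log2 ratio 1.12) and Tipin (1.02), both of the fork protection machinery, were called, and the median was 0.48. Neither was called without scaling. H2ax, the histone that is phosphorylated at breaks, had 18504 counts with CPA and 13585 with DMSO at 37 °C, and 13526 with CPA and 14548 with DMSO at 25 °C, a ratio of 1.63 (1.58 to 1.68), under the call.

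Genes of DNA replication and nucleotide supply leaned to higher ratios with moderate size. Of 50 measured, 10 were called higher and 0 lower, beside 2.34% called higher over all genes. In 48 the ratio was above 1, and the median log2 ratio was 0.80. Rrm2, the inducible subunit of ribonucleotide reductase, had 1332 counts with CPA and 430 with DMSO at 37 °C, and 454 with CPA and 455 with DMSO at 25 °C, a ratio of 3.45 (2.90 to 4.10). Cdc45, of the replicative helicase, had 994 counts with CPA and 522 with DMSO at 37 °C, and 302 with CPA and 362 with DMSO at 25 °C, a ratio of 2.54 (2.10 to 3.07). Pole, the leading-strand polymerase, had a log2 ratio of 1.31. Pcna, the sliding clamp, had 2836 counts with CPA and 1654 with DMSO at 37 °C, and 2125 with CPA and 2065 with DMSO at 25 °C, a log2 ratio of 0.89, and Orc3, of the origin recognition complex, one of -0.59. Many of these ratios lay close to 2-fold, and 5 genes were called without scaling and 3 with scaling to Gapdh.

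Among regulators of the G1 to S transition, 2 of 27 were called higher and 0 lower, beside 2.34% called higher over all genes. The list median was 0.35. The 2 called genes are both cyclin E genes. Ccne2 had 1635 counts with CPA and 550 with DMSO at 37 °C, and 428 with CPA and 477 with DMSO at 25 °C, a ratio of 3.68 (3.12 to 4.35), and Ccne1 had 460 counts with CPA and 250 with DMSO at 37 °C, and 195 with CPA and 226 with DMSO at 25 °C, a ratio of 2.37 (1.84 to 3.05). Cdkn1c, which encodes the inhibitor p57, had a log2 ratio of -0.70.

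Mitosis genes had the largest number of calls among the 36 lists. Of 57 measured, 25 were called higher and 0 lower, beside 2.34% called higher over all genes. In 56 the ratio was above 1. The median log2 ratio was 0.92, with median log2 folds of 0.87 at 37 °C and -0.04 at 25 °C. Zwilch, of the kinetochore RZZ complex, had 316 counts with CPA and 100 with DMSO at 37 °C, and 122 with CPA and 152 with DMSO at 25 °C, a ratio of 4.38 (3.11 to 6.15). Kif15, a spindle kinesin, had 824 counts with CPA and 296 with DMSO at 37 °C, and 175 with CPA and 213 with DMSO at 25 °C, a ratio of 3.77 (2.94 to 4.82). Mybl2, the MYB factor that drives mitotic genes, had 645 counts with CPA and 267 with DMSO at 37 °C, and 290 with CPA and 390 with DMSO at 25 °C, a ratio of 3.61 (2.92 to 4.47), and here 37°C_DMSO was the lowest library. With scaling to Gapdh 9 of the list were called.

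The mitotic kinases varied. Cdk1, the kinase of mitotic entry, had 2849 counts with CPA and 1677 with DMSO at 37 °C, and 1290 with CPA and 1355 with DMSO at 25 °C, a log2 ratio of 0.99, and Aurkb, of the chromosomal passenger complex, had 751 counts with CPA and 383 with DMSO at 37 °C, and 285 with CPA and 285 with DMSO at 25 °C, a log2 ratio of 1.12. Plk1 had a log2 ratio of 0.31, and Aurka had 502 counts with CPA and 479 with DMSO at 37 °C, and 252 with CPA and 215 with DMSO at 25 °C, a log2 ratio of -0.01. Mki67, the proliferation marker used in the study, had 1217 counts with CPA and 865 with DMSO at 37 °C, and 429 with CPA and 415 with DMSO at 25 °C, a log2 ratio of 0.60. Chosen after their values were seen, 19 genes with a centromere protein (Cenp) symbol had 7 called higher and 0 lower. Over all genes 2.34% were called higher. The median of the 19 genes was 0.74. Their log2 ratios ran from 0.10 for Cenpc1 to 1.42 for Cenpn, and their log2 folds at 25 °C from -0.39 to 0.32.

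Promoters of these genes are shown because mitotic genes share the cell cycle homology region, TTTGAA on either strand, and replication genes share E2F sites, here TTTGGCGC or TTTCCCGC. The lines below give the last 120 bases before the RefSeq start (GRCm38.p6) of the 4 called mitosis genes with the highest ratios among those with the first motif in this stretch, and of Dtl, a replication licensing ligase subunit and the only called replication gene with an E2F match there. Capitals mark the match, which reads TTCAAA where it lies on the other strand.
Kif15: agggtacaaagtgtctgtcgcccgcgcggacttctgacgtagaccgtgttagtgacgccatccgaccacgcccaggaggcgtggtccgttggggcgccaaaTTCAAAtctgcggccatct
Espl1: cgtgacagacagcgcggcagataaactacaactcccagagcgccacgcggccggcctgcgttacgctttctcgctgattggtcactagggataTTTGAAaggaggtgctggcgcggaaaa
Ckap2: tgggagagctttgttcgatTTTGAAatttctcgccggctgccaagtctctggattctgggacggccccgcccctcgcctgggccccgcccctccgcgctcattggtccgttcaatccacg
Kntc1: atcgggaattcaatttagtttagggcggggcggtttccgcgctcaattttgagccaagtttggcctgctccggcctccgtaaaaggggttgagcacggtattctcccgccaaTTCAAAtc
Dtl: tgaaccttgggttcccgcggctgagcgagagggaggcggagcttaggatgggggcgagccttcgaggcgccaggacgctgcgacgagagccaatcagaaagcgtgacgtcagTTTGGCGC
They lie at chr9:122950961-122951080 (plus) for Kif15, chr15:102296173-102296292 (plus) for Espl1, chr8:22185820-22185939 (minus) for Ckap2, chr5:123749606-123749725 (plus) for Kntc1 and chr1:191575545-191575664 (minus) for Dtl. The match begins 19 bases before the start in Kif15, 27 in Espl1, 101 in Ckap2 and 8 in Kntc1 and Dtl, so the Ckap2 match is much farther away than the other 4.

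Over whole windows, TTTGAA was found in 78.8% of the 52 windows of the measured mitosis genes, against 17.9% of all windows and 12% of windows of genes with a ratio. An E2F match was found in 29.2% of the 48 windows of replication genes, against 1.56% and 3.06%. Over the genes called higher as a whole, 209 of 287 symbols matched 238 windows, of which 20.2% held TTTGAA, 7.98% an E2F match, 11.8% a p53 half-site and 50.8% a CCAAT box, the last against 38.2% of windows of genes with a ratio. Over the genes called lower, 103 of 146 symbols matched 145 windows, of which 10.3% held TTTGAA, 0 an E2F match, 10.3% a p53 half-site and 30.3% a CCAAT box. The TATA box, TATAAA on either strand, was in 6.30% of windows of genes called higher and 17.9% of those called lower, against 7.16% of windows of genes with a ratio and 13.6% of all windows.

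Over the stress programs, counts are given beside 2.34% called higher and 1.18% lower over all genes, a share at which lists of this size hold few calls or none. Of 23 detoxification and NRF2 target genes, 19 genes of the unfolded protein and integrated stress responses, and 13 interferon response genes, 0 were called in either direction, with medians of 0.16, -0.22 and -0.20 (the first -0.07 with scaling to Gapdh). Ephx1, the epoxide hydrolase called higher above, is not in the detoxification list and not in its count. Nqo1, an NRF2 target, had 344 counts with CPA and 198 with DMSO at 37 °C, and 375 with CPA and 339 with DMSO at 25 °C, a log2 ratio of 0.80. Of 15 heat shock chaperones only Cryab was called (log2 ratio 1.12). The cold-inducible RNA-binding proteins Rbm3 and Cirbp were high at 25 °C whether or not the drug was given, and their log2 ratios were 0.62 and -0.11. Rbm3 had 5557 counts with CPA and 4126 with DMSO at 37 °C, and 15159 with CPA and 15571 with DMSO at 25 °C. Cirbp had 1252 counts with CPA and 1352 with DMSO at 37 °C, and 5720 with CPA and 5164 with DMSO at 25 °C. Of 76 cytosolic ribosomal protein genes 0 were called and the median was -0.02.

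Bone and mineralization genes stood among the lowest ratios. Ibsp, which encodes bone sialoprotein of mineralizing matrix and lies on chromosome 5 (104728190 to 104740488 in mm9), had 281 counts in 37°C_CPA, 5098 in 37°C_DMSO, 686 in 25°C_CPA and 390 in 25°C_DMSO. The folds were 0.0597 (0.0527 to 0.0673) at 37 °C and 1.71 (1.51 to 1.95) at 25 °C, and the ratio was 0.0348 (0.0292 to 0.0416). The 37°C_DMSO library stood apart, and 37°C_CPA was closer to both 25 °C libraries than to its own control.

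Ifitm5, a membrane protein of osteoblasts, had 16 counts with CPA and 295 with DMSO at 37 °C, and 83 with CPA and 55 with DMSO at 25 °C, a ratio of 0.0399 (0.0205 to 0.0757). Phospho1, the phosphatase that starts mineral formation, had 54 counts with CPA and 363 with DMSO at 37 °C, and 117 with CPA and 100 with DMSO at 25 °C, a ratio of 0.141 (0.0937 to 0.213). In both, as for Ibsp, 37°C_DMSO was the high library. Phospho1 is not in the bone list and not in the counts that follow. Of 16 bone and odontoblast genes 4 were called lower and 0 higher, beside 1.18% called lower over all genes, with a median of -0.78. The 4 were Ibsp, Ifitm5, Smpd3 (log2 ratio -1.29) and Sp7 (-1.24), the last the osteoblast transcription factor osterix. Col1a1, the main collagen of bone and dentin, had 24034 counts with CPA and 49104 with DMSO at 37 °C, and 8699 with CPA and 8264 with DMSO at 25 °C, a log2 ratio of -0.95. Spp1 (osteopontin) had 3041 counts with CPA and 2463 with DMSO at 37 °C, and 116 with CPA and 93 with DMSO at 25 °C, a log2 ratio of 0.14, although it was also much lower at 25 °C. With scaling to Gapdh 9 of the list were called lower, and with a minimum of 200 counts 2.

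Skeletal muscle genes had the most uniform lower ratios. Of 11 measured, 10 were called lower and 0 higher, with a median log2 ratio of -1.82, beside 1.18% called lower over all genes, and median log2 folds of -1.01 at 37 °C and 0.38 at 25 °C. Myog, which encodes the myogenic factor myogenin, had 48 counts with CPA and 201 with DMSO at 37 °C, and 199 with CPA and 144 with DMSO at 25 °C, a ratio of 0.192 (0.128 to 0.285). Actc1, the actin of heart and embryonic muscle, had 110 counts with CPA and 434 with DMSO at 37 °C, and 311 with CPA and 264 with DMSO at 25 °C, a ratio of 0.239 (0.181 to 0.314). In both genes 37°C_CPA was the low library and the other 3 lay within 2-fold of one another. Tnnt1, a slow troponin, had 37 counts with CPA and 156 with DMSO at 37 °C, and 72 with CPA and 54 with DMSO at 25 °C, a log2 ratio of -2.34, while Tnnc2, a fast troponin, had 56 counts with CPA and 121 with DMSO at 37 °C, and 55 with CPA and 21 with DMSO at 25 °C, a log2 ratio of -2.35, so for Tnnc2 the low 25°C_DMSO library made part of the ratio. Tnnc2 also reached 50 counts at 25 °C in 25°C_CPA alone, so the minimum favoured a large fold there. Myl4, an embryonic light chain, was the member without a call (-0.27). Counts were low, and 4 of the list were called when all 4 libraries had to reach 50 counts and 2 with a minimum of 200 counts.

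The summed level of the 11 muscle genes was 61.3 CPM (TMM-scaled counts per unit of library size) in 37°C_CPA, 132 in 37°C_DMSO, 122 in 25°C_CPA and 93.8 in 25°C_DMSO. In bulk germs, fewer muscle cells and less RNA of these genes per cell cannot be told apart, and the same holds for the bone and macrophage genes. Of 19 macrophage and leukocyte genes 3 were called lower and 0 higher, beside 1.18% called lower over all genes, with a median of -0.48. Aif1, a macrophage calcium-binding protein, had 109 counts with CPA and 321 with DMSO at 37 °C, and 95 with CPA and 76 with DMSO at 25 °C, a ratio of 0.302 (0.205 to 0.446), Csf1r, the receptor of the macrophage growth factor, had a log2 ratio of -1.07 and Coro1a, a leukocyte coronin, one of -1.99. With scaling to Gapdh 5 were called, and with a minimum of 200 counts 1. Trem2 and Cd68, other macrophage genes, had log2 ratios of 0.14 and 0.17. The summed level of this list was 1070 CPM in 37°C_CPA, 1390 in 37°C_DMSO, 470 in 25°C_CPA and 469 in 25°C_DMSO.

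Promoters of Ibsp and Tnnt1 are shown as examples of the TATA boxes found among genes called lower, again as the last 120 bases before the RefSeq start with the match in capitals (TTTATA where it lies on the other strand).
Ibsp: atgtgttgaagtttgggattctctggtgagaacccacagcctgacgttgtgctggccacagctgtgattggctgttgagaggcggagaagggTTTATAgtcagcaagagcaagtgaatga
Tnnt1: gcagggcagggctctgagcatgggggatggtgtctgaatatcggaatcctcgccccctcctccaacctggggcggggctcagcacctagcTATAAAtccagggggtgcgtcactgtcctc
They lie at chr5:104299167-104299286 (plus) for Ibsp and chr7:4515976-4516095 (minus) for Tnnt1 in GRCm38.p6. In this stretch a TATA box was found in 3 of the 10 called muscle genes and in 1 of 2 called bone genes with a window, against 6.34% of all windows and 2.70% of windows of genes with a ratio. The gene counts take a match in any window of the gene, while the shares are per window.

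Lists for other cell types of the germ held few measured genes or few calls, beside 2.34% called higher and 1.18% lower over all genes. At these shares lists of this size hold few calls or none. Of 15 endothelial, 7 cartilage and 5 nerve and Schwann cell genes, 0 were called. Of 2 measured erythroid genes Hbb-y, an embryonic globin, was called higher, with 138 counts with CPA and 82 with DMSO at 37 °C, and 1068 with CPA and 1542 with DMSO at 25 °C, a log2 ratio of 1.43. Its level was far higher in both 25 °C libraries than in either 37 °C library. Krt1, a keratin of differentiated epidermis, was the called gene among 12 cornified envelope genes, with 1516 counts with CPA and 916 with DMSO at 37 °C, and 353 with CPA and 560 with DMSO at 25 °C, a log2 ratio of 1.54, and 0 of 29 basal epithelium genes were called.

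Dental genes stayed mostly within 2-fold and leaned to ratios below 1. Of 23 dental epithelium and enamel genes 2 were called lower, beside 1.18% called lower over all genes, with a median of -0.31. Lef1, a transcription factor of the WNT pathway, had 632 counts with CPA and 1360 with DMSO at 37 °C, and 606 with CPA and 540 with DMSO at 25 °C, a ratio of 0.460 (0.395 to 0.536), and Sox21 had 45 counts with CPA and 128 with DMSO at 37 °C, and 107 with CPA and 113 with DMSO at 25 °C, a ratio of 0.413 (0.261 to 0.648). The WNT inhibitor Dkk1 was the called gene (log2 ratio -1.03) among 30 of the dental mesenchyme, where 29 ratios were below 1 and the median was -0.30. Shh, the signal of the enamel knot, had 916 counts with CPA and 1046 with DMSO at 37 °C, and 206 with CPA and 128 with DMSO at 25 °C, a log2 ratio of -0.73, and its 2 libraries at 25 °C were both low. With scaling to Gapdh 4 of the epithelial and 5 of the mesenchymal genes were called lower. Among 31 collagens and other matrix genes 0 were called (6 lower with scaling to Gapdh), 30 ratios were below 1 and the median was -0.41. Some genes sit in more than 1 list, Bmp4, Dlx5, Runx2 and Postn among them.

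Hypoxia and metabolic genes also leaned low. Of 26 glycolysis and hypoxia genes 3 were called lower, beside 1.18% called lower over all genes, with a median of -0.46. The 3 were Ankrd37, Ndrg1 and Bnip3, with log2 ratios of -1.44, -1.41 and -1.11. Bnip3 had 1004 counts with CPA and 2210 with DMSO at 37 °C, and 672 with CPA and 618 with DMSO at 25 °C. They are known targets of hypoxia-inducible factor, and in all 3 the 37°C_DMSO library stood above the other 3. With scaling to Gapdh 7 of the list were called lower, and without scaling 5. Of 23 cholesterol synthesis genes 0 were called and the median was -0.44. Hlf, a clock-controlled transcription factor, was the called gene of 15 in the clock list, with 201 counts with CPA and 414 with DMSO at 37 °C, and 956 with CPA and 804 with DMSO at 25 °C, a log2 ratio of -1.14.

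Other ranked genes with a lower ratio, Car3, Smoc1 and Ltb, belong to no list. Car3, a carbonic anhydrase of muscle and fat, had 13 counts with CPA and 297 with DMSO at 37 °C, and 83 with CPA and 82 with DMSO at 25 °C, a ratio of 0.0481 (0.0236 to 0.0929). Smoc1, a calcium-binding matrix protein that modulates BMP signals, had 120 counts with CPA and 354 with DMSO at 37 °C, and 243 with CPA and 185 with DMSO at 25 °C, a ratio of 0.287 (0.214 to 0.384). Ltb, the lymphotoxin of the TNF family, had 23 counts with CPA and 106 with DMSO at 37 °C, and 306 with CPA and 351 with DMSO at 25 °C, a ratio of 0.277 (0.164 to 0.451). For Car3 the 37°C_DMSO library was the highest and 37°C_CPA the lowest, while for Ltb both 37 °C libraries were below both 25 °C libraries.

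In a small set of genes the ratio turned on the 25 °C libraries. S100a9 and S100a8, which encode the 2 chains of calprotectin and are neighbours on chromosome 3, were at their lowest in 25°C_DMSO. S100a9 had 417 counts in 37°C_CPA, 462 in 37°C_DMSO, 207 in 25°C_CPA and 6 in 25°C_DMSO, and S100a8 had 129 counts with CPA and 91 with DMSO at 37 °C, and 326 with CPA and 30 with DMSO at 25 °C. The folds at 25 °C were 33.6 (15.2 to 92.7) and 10.6 (7.28 to 15.9), while at 37 °C they were 0.977 and 1.54. Of 16 measured S100, chemokine and cytokine genes these were the only 2 called, beside 1.18% called lower over all genes.

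Csf2rb2, a receptor subunit for hematopoietic cytokines, had 145 counts with CPA and 312 with DMSO at 37 °C, and 80 with CPA and 15 with DMSO at 25 °C, a ratio of 0.0968 (0.0502 to 0.177). Clk2, a kinase of splicing factors, had 651 counts with CPA and 746 with DMSO at 37 °C, and 1340 with CPA and 598 with DMSO at 25 °C. It had a 25 °C fold of 2.18 (1.98 to 2.41) and a ratio of 0.433 (0.374 to 0.50). Here 25°C_CPA was the high library. Tslp, an epithelial cytokine, had 289 counts with CPA and 708 with DMSO at 37 °C, and 59 with CPA and 24 with DMSO at 25 °C, with folds of 0.442 (0.384 to 0.508) at 37 °C and 2.40 (1.47 to 4.03) at 25 °C. Like S100a9, S100a8 and Csf2rb2, Tslp reached 50 counts at 25 °C in 25°C_CPA alone, so the minimum itself favoured large folds there. Tslp was the only gene of the 146 past 2-fold in opposite directions at the 2 temperatures. On the higher side this held for Gm10221 alone, a pseudogene in the annotation, which had 271 counts with CPA and 21 with DMSO at 37 °C, and 2 with CPA and 50 with DMSO at 25 °C. Tags that it may share with another copy cannot be told apart. The predicted genes Gm10073 and Gm17511 were low in 37°C_DMSO alone and are uncertain in the same way. Gm10073 had 223 counts with CPA and 4 with DMSO at 37 °C, and 156 with CPA and 112 with DMSO at 25 °C. Gm17511 had 5326 counts with CPA and 120 with DMSO at 37 °C, and 4628 with CPA and 3276 with DMSO at 25 °C.

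A lower 25 °C fold carried the higher ratio of Arhgap25, a GTPase-activating protein of leukocytes, and of the predicted genes Gm7353 and Gm6612. Arhgap25 had 55 counts with CPA and 71 with DMSO at 37 °C, and 18 with CPA and 53 with DMSO at 25 °C, a ratio of 2.53 (1.28 to 5.12), and 25°C_CPA was its low library.

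Genes of the sex chromosomes stood among the calls. The Y-linked genes Ddx3y, Uty, Kdm5d and Eif2s3y were all called lower, with log2 ratios of -2.15, -1.87, -1.70 and -1.53, and Xist, the X-inactivation RNA, was called higher with 2562 counts with CPA and 1529 with DMSO at 37 °C, and 1711 with CPA and 2674 with DMSO at 25 °C, a log2 ratio of 1.54. Ddx3y had 229 counts with CPA and 424 with DMSO at 37 °C, and 366 with CPA and 137 with DMSO at 25 °C. The Y-linked genes were lower in each of 37°C_CPA and 25°C_DMSO than in the other library of the same temperature, and Xist was higher in the same 2 libraries. A drug effect on these genes and a different share of male embryos in the pools cannot be told apart, and how far the sex of the pooled embryos bears on other genes was not tested.

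Of 13 genes among those that the study names for its own stainings, markers or controls, Cdkn1a was the only one called. Over all genes 2.34% were called higher and 1.18% lower. Amelogenin and AmeloD, further markers of the study, were not analysed here. Rb1, the retinoblastoma protein gene, had 83 counts with CPA and 61 with DMSO at 37 °C, and 50 with CPA and 60 with DMSO at 25 °C, a ratio of 1.81 (1.07 to 3.09), and Gapdh a log2 ratio of 0.23. Ambn, which encodes the enamel protein ameloblastin, had 116 counts with CPA and 183 with DMSO at 37 °C, and 1255 with CPA and 1297 with DMSO at 25 °C, a log2 ratio of -0.46, so its level followed the temperature far more than the drug. Krt14 (0.29) and Vim (-0.12), used as markers of epithelium and mesenchyme, had log2 ratios near 0, as did Cdk2 (0.39), Cdk6 (0.11), Ccnd3 (-0.25), Nkx2-3 (-0.23) and Hspg2 (0.18).

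Depth set how small a ratio could be read. The spread over genes, taken as the distance between the 16th and 84th percentiles divided by 2, was compared with the SD that counting alone gives. Among genes with a mean under 100 counts the spread was 0.56 for the log2 ratio against 0.34 from counting, and 9.86% of them were called, while among genes with 3000 counts or more it was 0.28 against 0.04, and 0.845% were called. At 25 °C the spread over these deepest genes was 0.08 against 0.26 at 37 °C. An approximate 95% interval, from the normal approximation to the log ratio, left out 1 for 5339 genes (43.3%), far more than were called, and the exact interval lay wholly beyond 2-fold for 101 of the 288 and 34 of the 146. At the minimum itself, the 34 genes whose lower maximum was 50 counts had log2 ratios from -1.24 to 8.49 with 7 past 2-fold, and the 33 genes at 49 counts, just outside, had values from -1.67 to 2.20 with 5 past 2-fold. Among the 979 genes that reached 50 counts at 37 °C only, 82 were at least 2-fold higher and 113 at least 2-fold lower with CPA at 37 °C, and whether the effect differed at 25 °C was not measured for these.

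**Figure D4:**
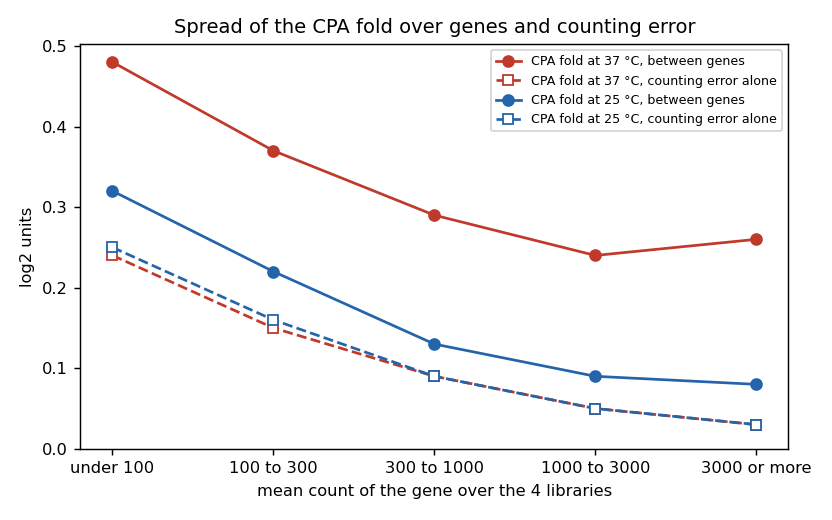
Spread of the log2 CPA fold over genes, as the distance between the 16th and 84th percentiles divided by 2 (filled circles, solid lines), and the SD expected from counting error alone (open squares, dashed lines), by the mean count of the gene over the 4 libraries. The 37 °C line falls to 0.26 and the 25 °C line to 0.08 among genes of 3000 counts or more, where counting error alone gives 0.03 for each.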

How the data were processed

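CAGE libraries of tooth germs were made by the study from total RNA and sequenced. Tags were aligned to mm9. BWA 0.5.9 and the builds mm9 and GRCh38 appear in the submitters' processing notes. Which annotation was used, and how tags were summed, is not given in the sources used here. Values were deposited as raw counts per gene by the authors, for 15887 genes.

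TMM factors were computed from the deposited counts over the 4 libraries (edgeR 4.0.16, R 4.3.3). Totals were 15255885 (37°C_CPA), 16449264 (37°C_DMSO), 15297204 (25°C_CPA) and 15101186 (25°C_DMSO), and a floor of 3 counts stands for 0.192, 0.177, 0.200 and 0.205 CPM. Folds are ratios of counts over total times factor. The 95% interval of a fold is the exact binomial one, and that of the ratio of ratios is the exact conditional one of the odds ratio of the 4 counts, both scaled by the TMM factors. No test was possible with 1 library per condition. Molecules were not told apart by identifiers, so intervals cover counting error only. The scripts (Python 3.11.15, SciPy 1.17.1) were tested on simulated data.

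Genes and the 36 gene lists were chosen with earlier results of these data known. Named were up to 15 genes at each end, ranked by whichever interval bound lay closer to 1, from called genes that reached 200 counts in a library (predicted, small RNA and clone symbols and identical rows left out), up to 3 genes at each end of each list, 13 genes the study names, genes whose 25 °C fold passed 2, and others chosen after their values were seen. Counts of 915 genes are identical to another gene's. Positions are from GENCODE vM1 (mm9), where 14333 identifiers matched, and promoters from RefSeq (GRCm38.p6), where 9016 of 12306 symbols matched. Some single genes are not reported here. Alternatives were no scaling, total counts, DESeq2 1.42.0 size factors, Gapdh scaling, other minimums, 10 added counts, identical rows once, an interval beyond 2-fold and a fold of 3.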

Additional observations from a re-analysis of the deposited data

Results flagged for a closer look

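In 2 genes the CPA library stood past 2-fold from its DMSO library in opposite directions at the 2 temperatures. Both reached 50 counts at 25 °C through 1 library alone, the one where they were high. Tslp, an epithelial cytokine gene, had a log2 ratio of ratios of -2.44, with a log2 fold of -1.18 at 37 °C and 1.26 at 25 °C, and the interval of its 25 °C fold (1.47 to 4.03) reached below 2. Gm10221 had a log2 ratio of 8.49, with log2 folds of 3.80 and -4.68, and rests on 2 counts in 25°C_CPA. Each condition has 1 library, and the difference was not tested.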

How the results depend on the processing

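The 288 higher and 146 lower calls of the ratio of ratios became 158 and 382 with scaling to Gapdh, 131 and 42 with a minimum of 200 counts (8767 genes), 771 and 724 with no minimum (15769 genes), 101 and 34 with intervals beyond 2-fold and 74 and 31 at 3-fold. Lower calls became 269 without scaling and 91 with 50 counts in all 4 libraries. At 37 °C the 238 higher and 99 lower calls became 117 and 24 at 200 counts, 571 and 525 with no minimum, 126 and 29 with intervals beyond 2-fold and 61 and 16 at 3-fold, and the lower ones 177 without scaling, 59 with 50 counts in all 4 libraries and 64 with 10 counts added. At 25 °C the 13 higher and 9 lower calls became 35 and 5 with Gapdh, 5 and 1 at 200 counts, 259 and 282 with no minimum, 5 and 2 with 50 counts in all 4 libraries, 8 and 5 with 10 counts added, 6 and 2 with intervals beyond 2-fold and 3 and 3 at 3-fold. DESeq2 size factors, total counts and identical rows taken once kept each of these 6 counts within 1.5 times. The causes of these moves were not tested beyond what the settings themselves fix. Over scalings and added counts, 1385 values of named genes and called list members stayed on their side of 2-fold, 76 lost and 19 gained the call, and none of the called values reversed. A change of scaling could not reverse them, since it moves every log2 ratio by the same amount and the largest move was -0.23. That move came from scaling to Gapdh and lay within the counting error of this gene. Of the list counts 678 stayed within 1.5 times and 114 did not, and of the list medians 304 stayed within 0.1 and 91 did not. No paired analysis was possible because each condition has 1 library, and for the same reason no library could be left out. Depth limits genes under 100 counts most, since counting alone gives them an SD of 0.34 in the log2 ratio.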
